A study of Mus musculus with 6 samples.

Results

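The BCL2 family of survival and death genes was examined in 6 RNA-seq libraries of bone marrow neutrophils, 3 labelled WT and 3 labelled LRP5-null. The members were the 10 rows of the deposited expression table, out of 52636, whose gene symbol was Mcl1, Bcl2a1a, Bcl2a1b, Bcl2a1d, Bcl2, Bcl2l1, Bcl2l11, Bax, Bak1 or Bid. They were named by symbol and not by their values. All mice were C57BL/6N and 10 weeks old. In the LRP5-null group both Lrp5 alleles are floxed and Cre recombinase is expressed from Lyz2, a gene of myeloid cells (LRP5f/f/Lyz2Cre+), whereas the WT entries list neither. Lyz2-driven Cre is active in neutrophils, monocytes and macrophages alike, so the deletion is not limited to neutrophils. Nothing in the labels says whether a library came from 1 mouse, and p-values therefore measure the spread between these libraries only. Expression was given as TPM, a transcript abundance scaled to one total per library and corrected for transcript length, so that levels can be compared between genes.

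BCL2 family proteins control the opening of the mitochondrial outer membrane, the step that commits a cell to intrinsic apoptosis. BAX and BAK1 form the pores. MCL1, BCL2, BCL-XL (encoded by Bcl2l1) and A1 (encoded by the Bcl2a1 copies) hold them in check. BH3-only proteins such as BIM (encoded by Bcl2l11), BID and BMF sense stress and either block the guardians or activate the pore formers directly. Neutrophils are short-lived cells that die by this route, and they depend on MCL1, a protein of rapid turnover. A1 is induced by inflammatory signals, while BCL2 itself is lost as granulocytes mature.

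A BH3 core occurs among members of each of these roles, and a single fixed pattern of it was searched. In the translated GENCODE M1 coding sequences, a leucine followed by any 3 residues and then glycine and aspartate was found once in each of 7 members and in none of the 3 Bcl2a1 copies. The longest coding transcript of Bmf, a BH3-only gene outside the listed members, had no match either. The search allowed no other residue at the fixed positions, so a missing match does not show that a protein lacks a BH3 region. The longest coding transcripts of 2710 of 22737 genes (11.9%) hold such a match, so it is not particular to the family. The codons of this core are shown 5′ to 3′ on the coding strand because guardians, pore formers and BH3-only proteins among the members hold them, with those for glycine and aspartate in capitals. The stretches lie, in NCBIM37 (mm9), at chr3:95463359-95463376 (plus strand) for Mcl1, chr1:108609161-108609178 (minus) for Bcl2, chr2:152655442-152655459 (minus) for Bcl2l1, chr7:52721376-52721393 (minus) for Bax, chr17:27159485-27159502 (minus) for Bak1, chr2:127972886-127972903 (plus) for Bcl2l11 and chr6:120847316-120847333 (minus) for Bid.
Mcl1: ctgcggcgcgtgGGCGAC
Bcl2: ctccgccgggctGGGGAT
Bcl2l1: ctgagagaggcaGGCGAT
Bax: ctccggcgaattGGAGAT
Bak1: cttgctctcatcGGAGAT
Bcl2l11: ctgcggcggatcGGAGAC
Bid: ctcgcccaaataGGCGAT

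The Bcl2a1 copies need a sequence check of another kind, since they are near-identical. Bcl2a1a (chromosome 9, 88851738 to 88857254), Bcl2a1b (chromosome 9, 89094047 to 89102665) and Bcl2a1d (chromosome 9, 88618126 to 88626708) have coding sequences of 519 bases each, which differ at 11 bases between Bcl2a1a and Bcl2a1b, at 7 between Bcl2a1a and Bcl2a1d and at 6 between Bcl2a1b and Bcl2a1d. The first 94 coding bases, the length of a read, are shown as an example of a stretch in which the copies differ. Many other windows of this length also occur unchanged in another copy, as given below. Capitals mark the 7 positions at which the copies differ, and the stretches lie at chr9:88851889-88851982 (plus strand), chr9:89094198-89094291 (plus) and chr9:88626464-88626557 (minus) of NCBIM37.
Bcl2a1a: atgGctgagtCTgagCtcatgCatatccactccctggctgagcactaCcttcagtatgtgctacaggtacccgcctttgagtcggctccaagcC
Bcl2a1b: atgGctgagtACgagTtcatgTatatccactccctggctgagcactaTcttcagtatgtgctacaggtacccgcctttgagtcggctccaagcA
Bcl2a1d: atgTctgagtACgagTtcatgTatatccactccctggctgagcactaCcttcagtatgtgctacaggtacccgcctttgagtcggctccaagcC
Of all windows of 94 bases in each transcript, 45.8% in Bcl2a1a, 34.0% in Bcl2a1b and 62.7% in Bcl2a1d also occur in another of the copies. How the authors' quantification divided such reads is not given in the sources used here, so the single copies are uncertain and their sum is given as well. If such reads were left out, the sum could be too low too. Bcl2a1b, the copy of highest TPM, has the smallest share of such windows, and Bcl2a1d, the copy of lowest TPM, the largest. The part of this in their order was not tested. No window was shared with Bcl2a1c, a shorter copy, which was at or below 0.03 TPM in every library.

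The libraries held between 249841492 and 340580330 reads. Ribosomal reads made up 1.2% and 1.3% in WT replicates 1 and 2 but 3.3% in WT replicate 3 and 2.69% to 2.98% in the LRP5-null libraries. Intronic reads made up 7.78% to 9% in WT and 10.62% to 11.23% in LRP5-null libraries. Reads in coding or untranslated sequence made up 83.84% to 87.03% and 81.85% to 82.41%. Both shares were without overlap between labels, and their part in the gene values was not tested. Neutrophil markers dominated every library, with a summed level of 384971 to 435734 TPM over 11 rows. The Lrp5 transcript, at 1.29 ± 0.15 TPM (SD, n = 3) in WT and 1.84 ± 0.21 TPM (SD, n = 3) in LRP5-null libraries, was not lower in the latter, so directions rest on the labels. Lyz2, from which Cre is driven, was 25963 ± 1039 TPM (SD, n = 3) in WT and 13792 ± 375 TPM (SD, n = 3) in LRP5-null libraries (limma adjusted p = 0.00351). Cre is driven from Lyz2 in the LRP5-null group only, and the part of this in the Lyz2 level was not tested. For any gene in bulk samples like these, fewer cells of a type and less RNA per cell cannot be told apart.

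Mcl1 was by far the most abundant member. It lies on chromosome 3 (95462643 to 95467099), and its level was 871, 792 and 736 TPM in WT replicates 1 to 3 and 826, 830 and 842 TPM in LRP5-null replicates 1 to 3. The WT libraries spread over a wider range, and this range enclosed all of the LRP5-null libraries. Mcl1 alone made up 82.9% ± 2.09 (SD, n = 3) of the summed TPM of the 10 members in WT and 84.2% ± 0.090 (SD, n = 3) in LRP5-null libraries. Across both groups its mean was 15.5 times that of Bid, the member next in order.

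Below Mcl1 came Bid, Bak1, Bcl2l1, Bcl2a1b, Bax, Bcl2l11, Bcl2a1a, Bcl2a1d and Bcl2, by mean TPM over all libraries. Neighbours in this order did not overlap in their library ranges, except for Bcl2l1 with Bcl2a1b, Bax with Bcl2l11, and Bcl2l11 with Bcl2a1a. In each of these 3 pairs the overlap involved Bcl2l1 or Bcl2l11, the members that varied most between the LRP5-null libraries. Bax and Bcl2l11 could not be ordered, with Bax higher in 4 of 6 libraries and a ratio of means of 1.04.

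**Figure D1:**
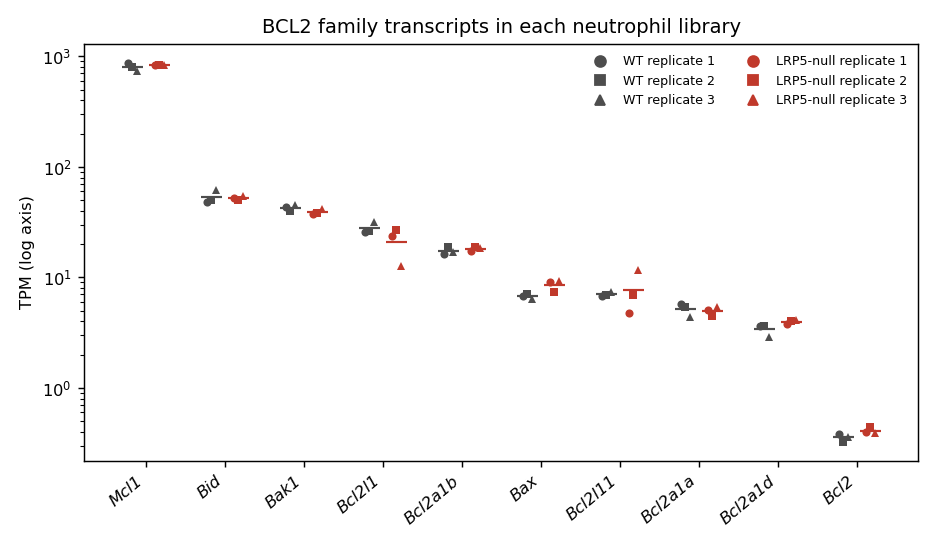
TPM of the 10 members (log axis) in each library, grey for WT and red for LRP5-null, with symbols for replicates 1 to 3 and short lines at group means, ordered by mean level. Mcl1 stands near 800 TPM, the other tested members lie between 2.90 and 61.2 TPM, and Bcl2 is below 0.44 TPM in every library.

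The comparison between labels asked whether loss of LRP5 went along with altered RNA levels in these cells. Of the 10 members, 9 had a mean of at least 1 TPM and were tested with limma on log2(TPM + 1) within the 9775 genes that passed this filter. None had a Benjamini-Hochberg adjusted p under 0.05 (0 of 9), against 0.532% of all genes tested. One member, Bax, had an unadjusted p under 0.05 in limma, against 23.5% of all genes. The groups did not overlap for 2 of the 9, Bax and Bcl2a1d, both higher in LRP5-null libraries, where 29.7% of all genes had groups without overlap. The median log2 fold change of the tested members was 0.04, and that of all genes was 0.04. The count of called members was 0 in all 16 alternative fits as well, among them the fit without WT replicate 3, in which 19.6% of all genes were called.

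**Figure D2:**
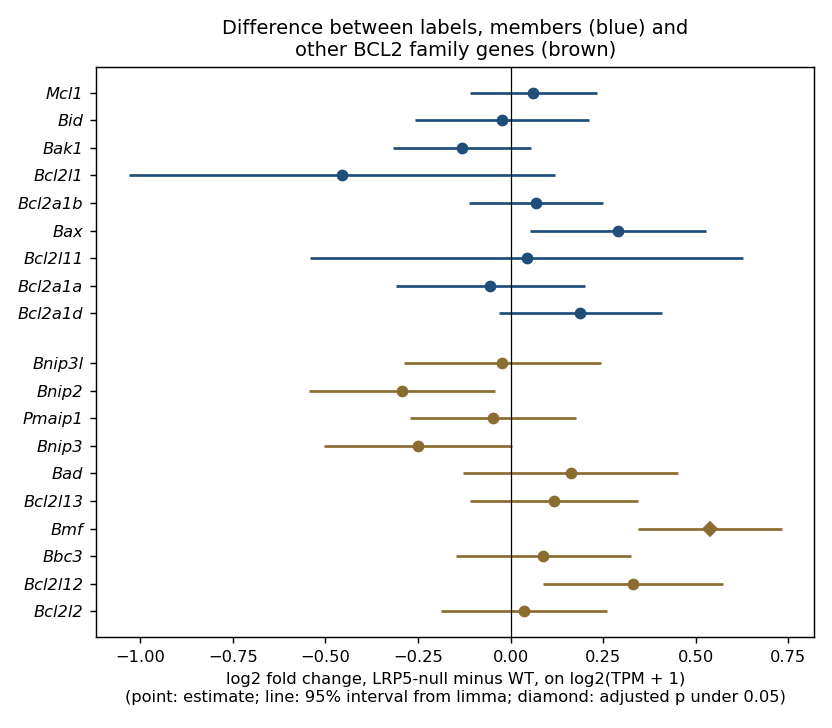
Log2 fold change (LRP5-null minus WT, on log2(TPM + 1), horizontal axis) with 95% intervals from limma for the 9 tested members (blue) and 10 other genes counted with the BCL2 family (brown). Among the members the interval of Bax alone lies off 0, those of Bcl2l1 and Bcl2l11 are the widest, and Bmf is the 1 gene with an adjusted p under 0.05.

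Among the guardians, the log2 fold change of Mcl1 was 0.06 (95% interval −0.11 to 0.23, limma adjusted p = 0.633). Bcl2a1b, the A1 copy of highest TPM as deposited, was 16.3, 18.6 and 16.9 TPM in WT and 17.5, 18.7 and 18.3 TPM in LRP5-null libraries. The groups overlapped, and the log2 fold change was 0.07 (95% interval −0.11 to 0.25, limma adjusted p = 0.617). Bcl2a1a was 5.72, 5.45 and 4.42 TPM in WT and 5.06, 4.44 and 5.37 TPM in LRP5-null libraries, again with overlap (log2 fold change −0.05, limma adjusted p = 0.795). These 2 copies varied between libraries of one label as much as between labels. Bcl2a1d was 3.65, 3.60 and 2.90 TPM in WT and 3.82, 3.998 and 4.12 TPM in LRP5-null libraries. Every LRP5-null library was above every WT library, by a small step, and the log2 fold change was 0.19 (95% interval −0.03 to 0.41, limma adjusted p = 0.271). Summed, the 3 copies gave 25.9 ± 1.74 TPM (SD, n = 3) in WT and 27.1 ± 0.70 TPM (SD, n = 3) in LRP5-null libraries, with overlap, and Bcl2a1b made up 63.5% to 69.8% of the sum.

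Bcl2l1, on chromosome 2 (152593052 to 152657464), encodes BCL-XL and was less uniform. It was 25.7, 26.5 and 31.9 TPM in WT and 23.8, 26.6 and 12.7 TPM in LRP5-null replicates 1 to 3. LRP5-null replicate 3 was far below all other libraries, while LRP5-null replicate 1 was just below the WT range and replicate 2 within it. The log2 fold change was −0.46 (95% interval −1.03 to 0.12, limma adjusted p = 0.303), and without LRP5-null replicate 3 it was −0.15 (limma adjusted p = 0.565). Bcl2, the founding member of the family, lies on chromosome 1 (108434755 to 108610851). It was 0.38, 0.33 and 0.36 TPM in WT and 0.40, 0.44 and 0.39 TPM in LRP5-null libraries, below the filter of 1 TPM. The groups did not overlap, but the gap was narrow, and the exact permutation test (two-sided) gave p = 0.1, the smallest p that 3 libraries against 3 allow. Bcl2 is well expressed in lymphocytes, and the summed level of 7 T and NK cell markers was 11.5 to 13.5 TPM in WT and 15.8 to 17.5 TPM in LRP5-null libraries. Cd3d made up most of this sum (9.33 to 10.6 TPM in WT, 13.4 to 14.5 TPM in LRP5-null libraries, limma adjusted p = 0.0651), while the groups overlapped for the other 6 markers, and the means of Cd3e, Cd3g and Klrb1c were lower in LRP5-null libraries. The B cell marker sum was not higher in LRP5-null libraries. The part of such cells in the Bcl2 values was not tested.

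Of the pore formers, Bak1 was more abundant than Bax in every library. Bax, on chromosome 7 (52717065 to 52722268), was 6.82, 7.09 and 6.44 TPM in WT and 9.07, 7.31 and 9.29 TPM in LRP5-null libraries. All LRP5-null libraries were higher, although LRP5-null replicate 2 exceeded WT replicate 2 only slightly. The ratio of means was 1.26 and the log2 fold change 0.29 (95% interval 0.05 to 0.53, limma unadjusted p = 0.0231, adjusted p = 0.162). With trends by GC content and transcript length removed from each library, the log2 fold change of Bax was 0.10 (limma adjusted p = 0.619). Bax has the highest GC content of the members in its longest coding transcript, 62.6%, where the others lie between 44.1% and 57.1%. That fit removed GC and length trends together, and the part of GC content in the Bax values was not tested. Bak1, on chromosome 17 (27156755 to 27165954), was 43.0, 39.9 and 45.2 TPM in WT and 37.2, 37.9 and 41.5 TPM in LRP5-null libraries. The groups overlapped through LRP5-null replicate 3 and WT replicate 2, and the log2 fold change was −0.13 (95% interval −0.32 to 0.05, limma adjusted p = 0.349). Summed, Bax and Bak1 gave 49.5 ± 2.33 TPM (SD, n = 3) in WT and 47.4 ± 2.99 TPM (SD, n = 3) in LRP5-null libraries.

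Both BH3-only members were without a difference that exceeded their spread. Bid, on chromosome 6 (120841948 to 120866871), encodes a protein that caspase-8 cleaves to link death receptors to mitochondria. Its level was 48.0, 50.5 and 61.2 TPM in WT and 51.9, 50.0 and 54.5 TPM in LRP5-null libraries, so that WT replicate 3 was the highest and the groups overlapped (log2 fold change −0.02, 95% interval −0.26 to 0.21, limma adjusted p = 0.910). Bcl2l11, on chromosome 2 (127951774 to 127988283), encodes BIM. It was 6.79, 6.99 and 7.40 TPM in WT and 4.72, 6.96 and 11.6 TPM in LRP5-null replicates 1 to 3. The WT libraries were close together, whereas the highest LRP5-null library was 2.45 times the lowest. Its log2 fold change of 0.04 therefore has a wide interval (−0.54 to 0.63, limma adjusted p = 0.934), and it was −0.26 without LRP5-null replicate 3 and 0.31 without LRP5-null replicate 1, uncalled in both. In LRP5-null replicate 3 Bcl2l11 was the highest and Bcl2l1 the lowest of all libraries.

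**Figure D3:**
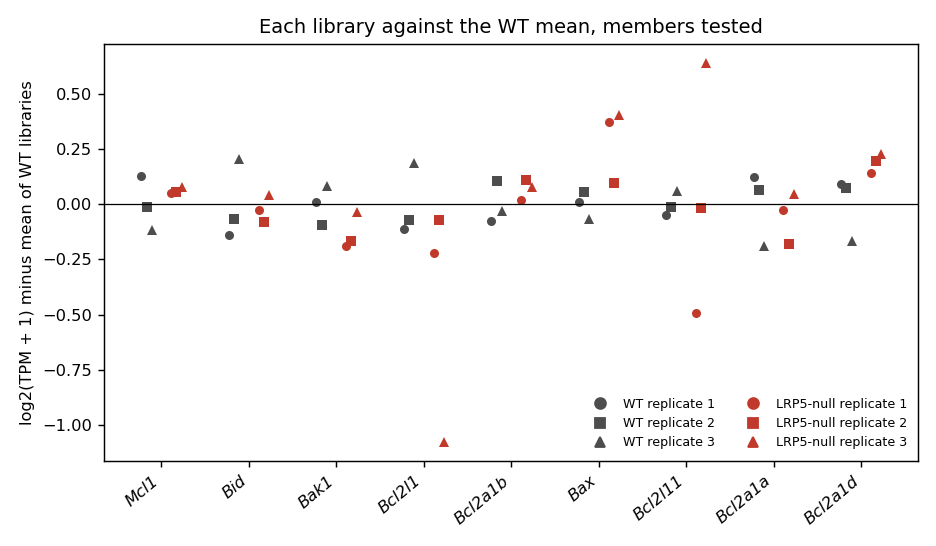
log2(TPM + 1) of each tested member in each library minus the mean of the WT libraries (vertical axis), grey for WT and red for LRP5-null, symbols for replicates 1 to 3. Bcl2l1 and Bcl2l11 in LRP5-null replicate 3 lie farthest from 0, one below and one above. The LRP5-null points of Mcl1, Bcl2a1b, Bax and Bcl2a1d are all above 0, and those of Bak1 and Bcl2l1 are all below 0.

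Outside the listed members, 17 further genes in the table were counted with the BCL2 family. They include Bnip2, whose product interacts with BCL2, and 10 of them passed the filter. Bmf, which encodes a BH3-only protein tied to the cytoskeleton and to loss of attachment or growth factors, was the 1 gene of them that was called. Bmf was 5.29, 4.83 and 5.75 TPM in WT and 8.36, 7.88 and 8.12 TPM in LRP5-null libraries. Every LRP5-null library was above every WT library, by a gap wider than the spread within either label. The ratio of means was 1.54 and the log2 fold change 0.54 (95% interval 0.35 to 0.73, limma adjusted p = 0.0476). This call was near the threshold: 5 of 16 alternative fits kept it, and the adjusted p ranged from 0.0115 without WT replicate 3 to 0.221 without LRP5-null replicate 1, while the log2 fold change stayed between 0.43 and 0.61. The replicate block gave Bmf an adjusted p of 0.118 in limma.

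No other gene counted with the family passed the test. Bcl2l12, a divergent family gene, was 1.77, 2.30 and 2.52 TPM in WT and 2.93, 3.06 and 3.01 TPM in LRP5-null libraries, without overlap (log2 fold change 0.33, limma adjusted p = 0.142). Bnip2, a BCL2-interacting protein gene, was 93.7, 86.0 and 70.0 TPM in WT and 67.2, 67.5 and 67.1 TPM in LRP5-null libraries (log2 fold change −0.29, limma adjusted p = 0.171). In both genes WT replicate 3 was the WT library nearest to the LRP5-null libraries. Both were called once it was left out (limma adjusted p = 0.0393 and 0.0145), as was Bnip3 (limma adjusted p = 0.0345). In that fit 19.6% of all genes tested were called, so such calls are not particular to these genes. Bnip3 and Bnip3l, which encode mitophagy receptors, had log2 fold changes of −0.25 and −0.02. The BH3-only genes Bad, Bbc3 (PUMA) and Pmaip1 (NOXA) had log2 fold changes of 0.16, 0.09 and −0.05, with limma adjusted p from 0.457 upward. Bcl2l13 and Bcl2l2 gave 0.12 and 0.04. Pmaip1, at 30.5 to 37.5 TPM, was the most abundant BH3-only gene after Bid, and 6 of the 7 family genes below the filter (Bik, Bok, Hrk, Bcl2l10, Bcl2l14 and Bcl2a1c) were under 0.1 TPM in every library.

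Apoptosis genes up- and downstream of the family were counted in 6 further lists. Together with the other family genes they came to 67 genes tested, of which 2 were called, Bmf and Usp9x, where 0.532% of all genes were called. An unadjusted p under 0.05 in limma was given by 18 of the 67 (26.9%, against 23.5% of all genes), and the groups did not overlap for 26 (38.8%, against 29.7%), 12 of them higher and 14 lower. The median log2 fold change of the 67 was 0.01.
Usp9x encodes a deubiquitinase that is known to stabilize MCL1 protein. It was 22.1, 19.2 and 19.1 TPM in WT and 13.2, 13.6 and 13.01 TPM in LRP5-null libraries. No WT library came near the LRP5-null libraries, and the log2 fold change was −0.57 (standard error 0.081, limma adjusted p = 0.0411). The adjusted p was under 0.05 in 7 of 16 alternative fits, with a range from 0.00823 with GC and length trends removed to 0.205 without LRP5-null replicate 1, and was 0.118 in limma with the replicate block. Huwe1, whose product is a ubiquitin ligase of MCL1, was 6.64, 6.49 and 7.47 TPM in WT and 8.08, 9.02 and 9.57 TPM in LRP5-null libraries, the opposite direction (log2 fold change 0.33, limma adjusted p = 0.121). With GC and length trends removed the log2 fold change of Huwe1 was 0.10 (limma adjusted p = 0.298). Btrc, for another ligase subunit, gave 0.20 (limma adjusted p = 0.201). Fbxw7 and March5 of the same list, named after their values were seen, gave −0.08 and −0.13 (limma adjusted p = 0.527 and 0.291). Of the 10 turnover genes tested 5 were above 0, and the list median was −0.02. The groups did not overlap for 6 of them, 3 higher and 3 lower, where 29.7% of all genes had groups without overlap.

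**Figure D4:**
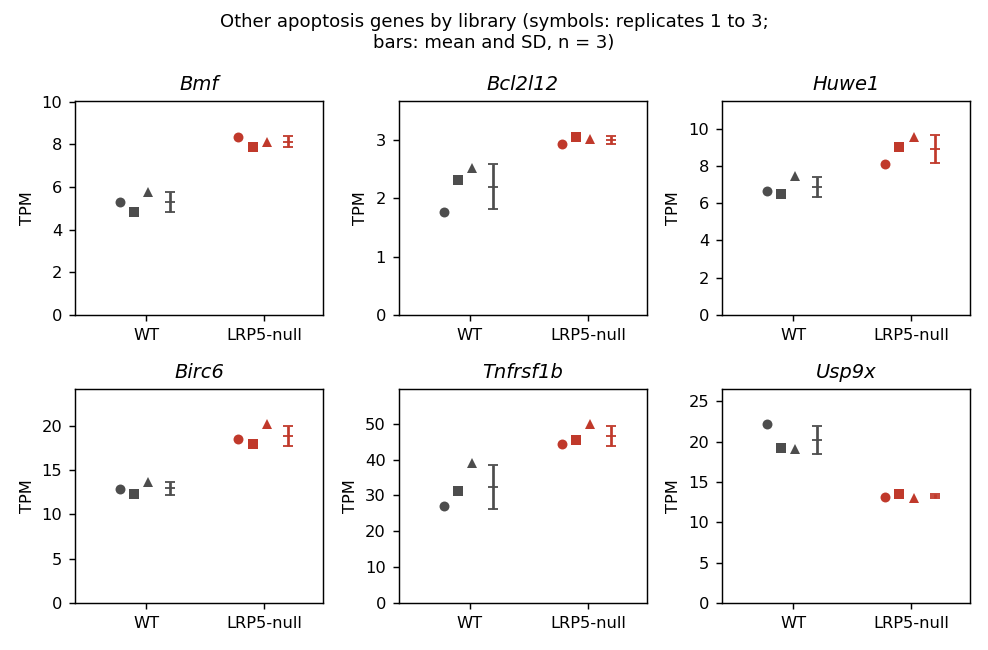
TPM by library for Bmf, Bcl2l12, Huwe1, Birc6, Tnfrsf1b and Usp9x, grey for WT and red for LRP5-null, symbols for replicates 1 to 3, bars for mean and SD (n = 3), all axes from 0. In each panel the groups do not overlap, and adjusted p is under 0.05 for Bmf and Usp9x.

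The inhibitors of apoptosis had differences of both signs. Birc6, a giant ubiquitin-conjugating inhibitor, was 12.9, 12.3 and 13.7 TPM in WT and 18.5, 17.98 and 20.2 TPM in LRP5-null libraries. The groups were well apart, and the log2 fold change of 0.51 just missed the threshold (limma adjusted p = 0.0503). Birc6 was called in 5 of 16 alternative fits, one of them with GC and length trends removed, in which the log2 fold change was 0.29 (limma adjusted p = 0.0480). Birc5 (survivin), a gene of dividing cells, gave 0.27 and Naip2 −0.25, both with an adjusted p of 0.119 in limma. Xiap, for a direct inhibitor of caspases, was named after its values were seen. It was 41.3, 36.9 and 27.0 TPM in WT and 23.4, 23.4 and 24.3 TPM in LRP5-null libraries, so that WT replicate 3 again stood nearest to the LRP5-null libraries (log2 fold change −0.52, limma adjusted p = 0.121). None of the 10 genes tested in this list was called, and its median was 0.06.

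Caspases and the apoptosome had 10 genes tested and 0 called, with a median of −0.03. Casp8, for the caspase that death receptors activate, had a log2 fold change of −0.13 and Cycs, for cytochrome c, one of 0.08, with limma adjusted p of 0.274 and 0.489. Of 9 death receptor genes tested 0 were called. Tnfrsf1b, for TNF receptor 2, was 26.9, 31.1 and 39.0 TPM in WT and 44.3, 45.5 and 49.8 TPM in LRP5-null libraries (log2 fold change 0.53, limma adjusted p = 0.104). Tnfrsf1a and Ripk3 gave 0.37 and 0.22, with limma adjusted p of 0.147 and 0.330.
The p53 axis had 7 genes tested, 0 called and a median of 0.0015. The 3 of smallest p were Mdm2 (−0.25), Ccng1 (−0.30) and Perp (−0.20), with limma adjusted p from 0.119 to 0.179. Among 11 tested genes of cell dismantling 0 were called, and Rock1, Acin1 and Dffb gave −0.42, 0.25 and 0.20 (limma adjusted p from 0.142 upward).

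**Figure D5:**
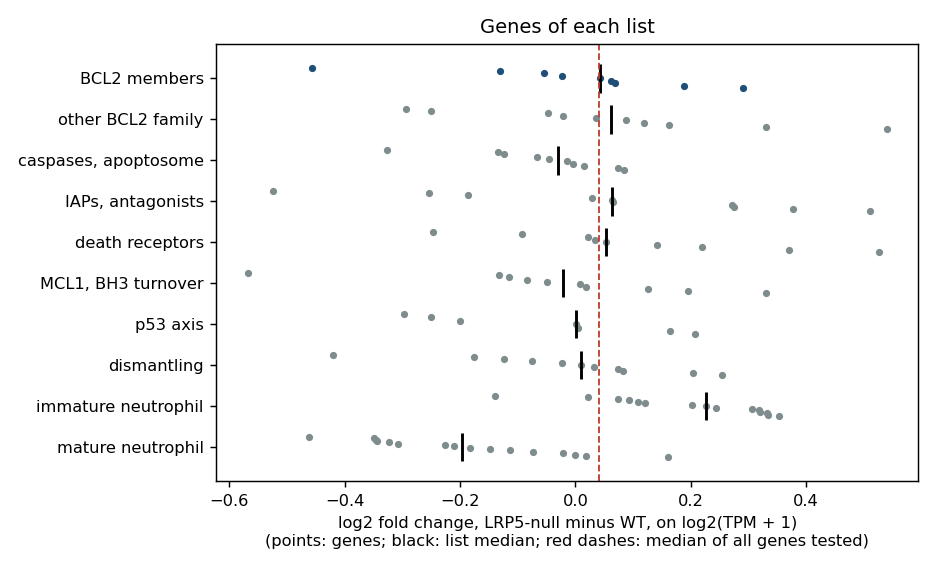
Log2 fold changes (LRP5-null minus WT, on log2(TPM + 1), horizontal axis) of the genes tested in each list, with black lines at list medians and a red dashed line at the median of all genes tested, 0.04. The members (blue) run from −0.46 to 0.29 around that median, while the immature and mature neutrophil lists sit to its right and left.

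Markers of neutrophil maturity differed in sign beside these results, although no gene of either list was called. Of 15 genes of immature neutrophils 14 were above 0, with a median log2 fold change of 0.23, and of 16 genes of mature neutrophils 2 were above 0, with a median of −0.20. The summed level of the immature list was 72124 to 79449 TPM in WT and 75086 to 79214 TPM in LRP5-null libraries, that of the mature list 37738 to 42348 and 36921 to 38452 TPM, and no marker of either list was under 0.1 TPM in every library. Their part in the values of Bmf, Usp9x and the members was not tested. The 6 B cell markers summed to 11.7 to 12.9 TPM in WT and 11.1 to 11.9 TPM in LRP5-null libraries, monocyte and macrophage markers to 564 to 723 and 634 to 687 TPM, and erythroid markers to 42.0 to 48.9 and 34.9 to 45.1 TPM, of which Klf1 was under 0.1 TPM throughout. The sums of 7 eosinophil, basophil and mast cell markers (10.0 to 12.6 against 13.3 to 14.4 TPM) and of 3 megakaryocyte markers (2.33 to 3.62 against 3.69 to 4.19 TPM) were higher in every LRP5-null library. In the former list Prg2, for an eosinophil granule protein, was called (1.02 TPM in WT and 2.79 TPM in LRP5-null libraries on average, limma adjusted p = 0.0341) and Epx, at 0.14 TPM or less, did not overlap, whereas the groups overlapped for the other 5 markers and the means of Mcpt8 and Fcer1a were lower. The groups overlapped for each megakaryocyte marker.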

How the data were processed

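RNA of bone marrow neutrophils was sequenced in 3 WT and 3 LRP5-null libraries. The authors aligned reads to the mouse genome (mm9), name the DESeq2 pipeline and deposited TPM, scaled to the same total in each library over the genes listed. The tool behind the TPM is not given in the sources used here. Isolation and kit differ between sources, with a Percoll gradient and an mRNA kit in the labels, and a CD11b and Ly6G sort, total RNA preparation and single-end sequencing in the methods. The deposited read summary lists paired-end reads of 94 bases, with counts of reads, shares in percent and a ratio for coverage bias at transcript ends. Depth cannot be recovered from TPM, and errors therefore rest on replicates alone.

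Log2(TPM + 1) of the 9775 genes averaging 1 TPM or more was fitted for all 6 libraries in limma 3.58.1 (R 4.3.3), allowing the variance to follow the mean, without covariates and with Benjamini-Hochberg adjustment over all genes fitted. This scale understates changes of low genes. Tables were made in Python 3.11.15, and the fit was tested on simulated data. Called means an adjusted p under 0.05. Members, lists and the rule for named genes (all members, all other family genes that passed, the called genes or 3 smallest p of each further list) were chosen with earlier results of these data known, and 1 gene that the rule names is not reported here. Coordinates and sequences come from GENCODE M1 (NCBIM37). Bcl2a1a and Bcl2a1d were matched to it by symbol. GC content and length covered 90.5% of genes tested. Alternatives were a pseudocount of 0.1, no filter or 5 TPM, median-ratio scaling, rescaling without mitochondrially encoded and the 20 most abundant genes, no trend, leaving out single libraries, a block for replicate number, the ribosomal share as covariate, WT replicate 3 alone as control, and GC and length trends removed.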

Additional observations from a re-analysis of the deposited data

How the results depend on the processing

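The number of called members was 0 in all 16 alternatives, which says that none passed and not that none differs. The number of all genes called, 52 (26 higher), was 3 without a filter (100% higher), 29 with a filter of 5 TPM (34.5% higher), 83 with median-ratio scaling (36.1% higher), 96 after rescaling without the most abundant genes (71.9% higher), 6 with the ribosomal share as covariate (16.7% higher), 6 against WT replicate 3 alone (16.7% higher), and 432 with GC and length trends removed (36.8% higher). It was 18, 3 and 1920 without WT replicates 1, 2 and 3, and 2, 15 and 2 without LRP5-null replicates 1, 2 and 3, a range of 2 to 1920. The 2 calls among the other apoptosis genes became 1 with a filter of 5 TPM and 1 without a variance trend, 0 without a filter, with the covariate and against WT replicate 3 alone, 7 with GC and length trends removed, and from 0 to 16 with a library left out, the most without WT replicate 3. The replicate block gave 4 calls among all genes and 0 among the other apoptosis genes. The methods state no pairing, and what libraries of the same number share beyond it is not known. Their deviations correlated at 0.229, −0.0075 and 0.131 across genes for numbers 1 to 3. For pairs of unlike number the correlations ran from −0.213 to 0.0834. Fewer libraries or residual degrees of freedom enter the fits that leave out libraries or add a term, and with WT replicate 3 alone that library is assumed to vary like the others. The cause of a changed count was not tested for any alternative.

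Signs turned for some uncalled log2 fold changes, which were between −0.05 and 0.22 as reported. With median-ratio scaling Mcl1 was −0.011, Bcl2a1b −0.0011, Bcl2l11 −0.022 and Bcl2l2 −0.0038, and with rescaling Bid was 0.0034 and Bnip3l 0.0044. With the covariate Bcl2a1a was 0.073, Bcl2l11 −0.049, Bnip3l 0.099 and Pmaip1 0.079. Against WT replicate 3 alone Bcl2a1a was 0.13, Bcl2l11 −0.017, Bnip3l 0.18, Pmaip1 0.14, Bbc3 −0.018 and Ripk3 −0.022. With GC and length trends removed Bnip3l was 0.12, Pmaip1 0.11, Bad −0.0036, Bbc3 −0.070 and Bcl2l2 −0.060. With a library left out the range was −0.15 to 0.0094 for Bcl2a1a, −0.26 to 0.31 for Bcl2l11, −0.092 to 0.080 for Bid, −0.011 to 0.10 for Bcl2l2, −0.12 to 0.063 for Bnip3l and −0.14 to 0.0026 for Pmaip1. Bax, Bcl2a1d, Bcl2l1 and Bak1 kept their direction in every alternative in which they were tested.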

Other observations

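LRP5-null replicate 3 stood apart in Bcl2l1 and Bcl2l11, which was noticed only after the values were seen and has no test. Over all genes tested, 30 (0.307%) lay at least 0.5 on the log2(TPM + 1) scale outside the range of the other 5 libraries in LRP5-null replicate 3, 15 above and 15 below, and both of these members were among them. The same count was 100 in WT replicate 1 and 19 to 34 in the other 4 libraries, in none of which a member lay so far out. Bcl2l1 was 0.85 below the next library, a distance that 5 genes reached, and Bcl2l11 was 0.58 above, which 11 genes reached. The ratio of Bcl2l11 to Bcl2l1 TPM was 0.23 to 0.26 in the WT libraries, 0.20 and 0.26 in LRP5-null replicates 1 and 2, and 0.91 in LRP5-null replicate 3. Bcl2l1 has 9 coding transcripts and Bcl2l11 5 in GENCODE M1, while Mcl1 and the Bcl2a1 copies have 1 each, and transcripts were not separated in the deposited table.

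Bak1 exceeded Bax by 6.29, 5.63 and 7.02 times in the WT libraries and by 4.11, 5.19 and 4.47 times in the LRP5-null libraries, without overlap. Neither gene was called on its own, and the ratio was formed after the values were seen.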
